A study of Mus musculus with 4 samples.

Results

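The annexins are a family of proteins that bind acidic phospholipids in the presence of calcium. The genes named for description were Anxa1, Anxa2, Anxa3, Anxa4, Anxa5, Anxa6, Anxa7 and Anxa11, and every probe set whose only gene symbol in the platform annotation was one of these 8 was taken. That gave 17 probe sets of 7 genes, out of 34945 probe sets of 18193 genes with a single symbol. No probe set was assigned to Anxa11 alone, so Anxa11 was not analysed here. The members were chosen by their signals in these same arrays, with the difference between Suz12KO and WT already known. The annexin values below are therefore a description and carry no test.

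The 4 Affymetrix expression arrays compared here hold RNA of mouse embryonic stem cells, 2 labelled Suz12KO and 2 labelled WT. Suz12 encodes a protein that Polycomb repressive complex 2 needs in order to methylate histone H3 at lysine 27. The label Suz12KO marks a knockout of this gene and the label WT marks wild type, and no treatment is given for either. RNA from 3 clones of a genotype was mixed in equal parts, and since no label says that each array had its own RNA, the spread between arrays may be technical only. The labels give no strain, no passage number and no word on feeder cells.

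Each annexin carries a conserved core of repeats that docks on membrane through bound calcium, preceded by a variable amino-terminal head that decides its partners. Heads of several members bind S100 proteins, and other members pass between cytosol and membrane alone. The family takes part in membrane repair, vesicle traffic, the anchoring of actin to the plasma membrane and, at the cell surface, plasminogen activation and the masking of phosphatidylserine.

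The sequences before the starts of Anxa1, Anxa2 and Anxa5 are shown because these genes were much lower in Suz12KO, and that of Anxa7 because it was close to WT. All are RefSeq sequences on GRCm38.p6, the 250 bases before the start, written along the gene's strand. RefSeq windows were matched for 6 of the 8 named genes, with 8 windows in all; Anxa3 and Anxa6 were not matched. Capitals mark matches, on either strand, to 5 motifs: the TATA box (TATAAA), the AP-1 site (TGANTCA), the TEAD site (GGAATG), the GC box (GGGCGG) and the CArG box bound by serum response factor. The lines are Anxa1 (chr19:20390672-20390921, minus strand), Anxa2 (chr9:69453433-69453682, plus strand), Anxa5 (chr3:36475888-36476137, minus strand) and the more upstream of the listed Anxa7 starts (chr14:20480134-20480383, minus strand).
Anxa1: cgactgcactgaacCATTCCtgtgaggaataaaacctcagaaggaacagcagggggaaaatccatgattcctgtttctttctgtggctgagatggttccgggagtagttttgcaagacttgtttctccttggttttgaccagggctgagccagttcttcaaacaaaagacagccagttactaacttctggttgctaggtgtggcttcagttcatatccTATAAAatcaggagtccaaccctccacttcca
Anxa2: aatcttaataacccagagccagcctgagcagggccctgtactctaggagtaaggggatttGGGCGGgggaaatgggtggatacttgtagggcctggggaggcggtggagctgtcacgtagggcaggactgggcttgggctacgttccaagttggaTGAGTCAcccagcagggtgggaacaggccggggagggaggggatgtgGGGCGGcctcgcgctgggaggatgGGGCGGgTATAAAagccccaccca
Anxa5: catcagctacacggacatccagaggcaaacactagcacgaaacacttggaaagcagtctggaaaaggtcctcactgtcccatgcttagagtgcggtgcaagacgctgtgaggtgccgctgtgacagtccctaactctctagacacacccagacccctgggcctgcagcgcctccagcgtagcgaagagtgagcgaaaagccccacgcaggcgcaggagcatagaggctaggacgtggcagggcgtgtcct
Anxa7: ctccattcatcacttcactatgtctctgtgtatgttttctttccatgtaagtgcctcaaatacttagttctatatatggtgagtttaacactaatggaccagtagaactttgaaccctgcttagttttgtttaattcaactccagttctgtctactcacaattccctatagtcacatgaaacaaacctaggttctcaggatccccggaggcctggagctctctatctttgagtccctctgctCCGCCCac

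No motif searched was found in all of the windows shown, although Anxa1 and Anxa2 shared a TATA box and Anxa2 and Anxa7 a GC box. Anxa1 held a TATA box 32 to 27 bases before the start and a TEAD match at 236 to 231 bases. Anxa2 held a TATA box 17 to 12 bases before the start, an AP-1 site at 95 to 89 bases and 3 GC boxes. Anxa5 held none of the 5 motifs in this window. The Anxa7 window shown held 1 GC box, and that of Anxa11 held 3. The window of the other listed Anxa7 start overlaps the one shown and held 4, the same GC box among them. Over all 32851 RefSeq windows of this length, 12.4% held a TATA box, 6.75% an AP-1 site, 12.6% a TEAD match, 32.7% a GC box and 1.47% a CArG box. No annexin window held a CArG box.

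CpG dinucleotides, which are dense in the promoters that Polycomb complexes usually occupy, also varied among the lower annexins with a window. The Anxa1 window held 2 CpG dinucleotides, the Anxa2 window 9 and the Anxa5 window 13, against a median of 6.0 over all windows (quartiles 2 and 16). These 3 windows thus lay on both sides of that median. The Anxa7 windows held 2 and 16, those of Anxa4 held 13 and 2, and that of Anxa11 held 17.

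Markers of the labelled cell type were present. All 12 embryonic stem cell markers examined were above background in every array and all 12 rose in Suz12KO, with a median log2 fold change of 0.92. After centring each array on its median 9 of the 12 stayed called (Dppa4, Tdgf1 and Zfp42 were lost, median 0.75), and 9 stayed called with probe sets averaged. They include the core factors Pou5f1 (0.69, limma adjusted p = 1.16e-04), Nanog (2.04, adjusted p = 1.38e-06) and Sox2 (0.86, adjusted p = 1.22e-04). Suz12 read 217 and 369 in Suz12KO, against 1097 and 1094 in WT (log2 fold change -1.89, SE 0.27, limma adjusted p = 0.00213). That call was lost when its probe sets were averaged (-1.67, limma adjusted p = 0.0602). In the fit of single probe sets 1427253_s_at read 274 and 301 in Suz12KO, against 1024 and 1096 in WT (-1.83, limma adjusted p = 0.0011). There 1452364_at read 25.6 and 243 in Suz12KO, against 895 and 816 in WT (-3.07, adjusted p = 0.0334). The dimmer 1420022_s_at (-1.24) was not called, and 1420020_at and 1449661_at were too dim to test. Background was set by 27 probe sets for bacterial spikes that read low throughout, whose highest value was 195 in Suz12KO and 191 in WT. Signals of 195 or less are called background level below. Of 12735 genes tested with limma, 570 were higher and 700 lower in Suz12KO at an adjusted p under 0.05. After centring each array on its median the split was 294 higher and 1243 lower, and the median over the tested genes moved to -0.13 from 0.04 on the log2 scale.

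Of the 7 measured annexins 4, Anxa1, Anxa2, Anxa3 and Anxa5, were called lower in Suz12KO, with signals 27.6% to 45.7% of WT. The other 3, Anxa4, Anxa6 and Anxa7, were not called, and 0 annexins were called higher. Over all tested genes the same rule called 5.50% lower and 4.48% higher. The median log2 fold change of the 7 annexins was -1.12, with a range of -1.85 to -0.14, beside a median of 0.04 over all tested genes. With each gene's probe sets averaged the annexin median was -0.59 and Anxa6 was at 0.016. Because the family was chosen with this contrast known, these counts describe it and support nothing further. The calls rest on a spread modelled as a trend over signal level; without that trend limma called 0 of all genes, annexins included, with 2332 genes at an unadjusted p under 0.05. In bulk RNA, fewer cells of a type that expresses a gene and less of its RNA per cell cannot be told apart.

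**Figure D1:**
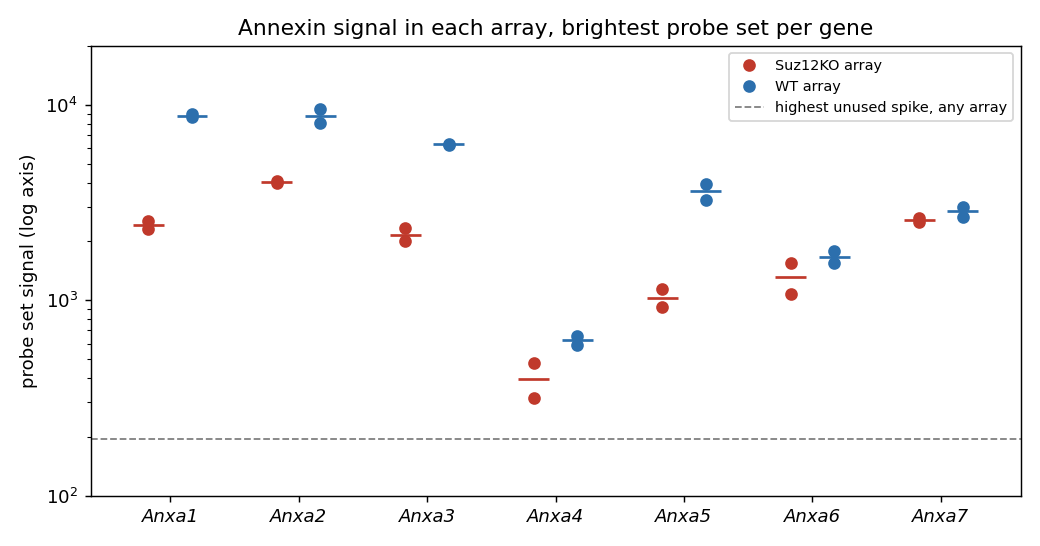
Probe set signal on a log axis for the brightest probe set of each of the 7 measured annexins; red points are the 2 Suz12KO arrays, blue points the 2 WT arrays, short lines the means, and the dashed line the highest unused spike (195). Anxa1, Anxa2, Anxa3 and Anxa5 show wide gaps between genotypes, while the gaps of Anxa6 and Anxa7 are about the width of the points.

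Anxa1, a glucocorticoid-induced protein that restrains phospholipase A2 and acts on formyl peptide receptors, differed most. It read 2309 and 2535 in the Suz12KO arrays, against 8611 and 8923 in the WT arrays. Both Suz12KO arrays lay far under both WT arrays, and arrays of a genotype nearly coincided. The log2 fold change was -1.85 (SE 0.08), and signals averaged 2422 ± 160 in Suz12KO and 8767 ± 220 in WT (mean ± SD, n = 2 arrays each). Of all tested genes, 0.495% had a lower log2 fold change.

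Anxa5, which coats exposed phosphatidylserine and is used in labelled form to detect dying cells, fell almost as far. Its signal was 924 and 1136 in Suz12KO, against 3272 and 3953 in WT. The genotypes were well apart although the arrays of each differed somewhat. The log2 fold change was -1.80 (SE 0.14), with means of 1030 ± 150 in Suz12KO and 3613 ± 482 in WT (SD, n = 2 each).

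Anxa3, known in human neutrophils as a granule-associated annexin, read 1999 and 2332 in Suz12KO, against 6320 and 6239 in WT. The groups did not overlap, and the WT arrays were almost equal. Its log2 fold change was -1.53 (SE 0.09), with means of 2166 ± 235 in Suz12KO and 6279 ± 57.1 in WT (SD, n = 2 each). Anxa3 and Anxa5 have a single probe set each, so no second probe set bears on either value.

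Anxa2, which pairs with S100a10, binds actin and endosomal membrane and serves as a surface docking site for plasminogen, fell least of the 4. Its brightest probe set read 3990 and 4056 in Suz12KO, against 9517 and 8107 in WT. The Suz12KO arrays nearly coincided and both WT arrays lay well above them. The log2 fold change was -1.12 (SE 0.09), with means of 4023 ± 47.3 in Suz12KO and 8812 ± 998 in WT (SD, n = 2 each). This call was lost when the 3 Anxa2 probe sets were averaged (-0.56).

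Anxa4, an epithelial annexin of secretory and apical membranes, was dimmer and less well measured. It read 475 and 314 in Suz12KO, against 588 and 659 in WT. The groups did not overlap, but the Suz12KO arrays differed from each other by 0.57 on the log2 scale, more than the 0.30 that separates the nearest arrays of the genotypes. The log2 fold change of -0.67 (SE 0.27) was not called. Leaving out Suz12KO replicate 2 gave -0.38, and leaving out Suz12KO replicate 1 gave -0.95.

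Anxa6, whose core is duplicated and which acts on endosomes and cholesterol-rich membrane, read 1076 and 1544 in Suz12KO, against 1551 and 1787 in WT. The higher Suz12KO array almost reached the lower WT array. The log2 fold change was -0.36 (SE 0.17) and was not called. With Suz12KO replicate 2 left out it was -0.62 and was called; with Suz12KO replicate 1 left out it was -0.11.

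Anxa7, the membrane-fusing annexin first named synexin, read 2628 and 2521 in Suz12KO, against 3014 and 2678 in WT. The nearest arrays of the genotypes were closer together than the 2 WT arrays. Its log2 fold change of -0.14 (SE 0.10) was not called, and leaving out 1 array gave -0.23 to -0.06. For all 7 genes both Suz12KO arrays lay under both WT arrays, a pattern that 23.9% of all tested genes showed. A log2 fold change of -1 or less was found in 4 annexins and in 3.56% of all tested genes.

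**Figure D2:**
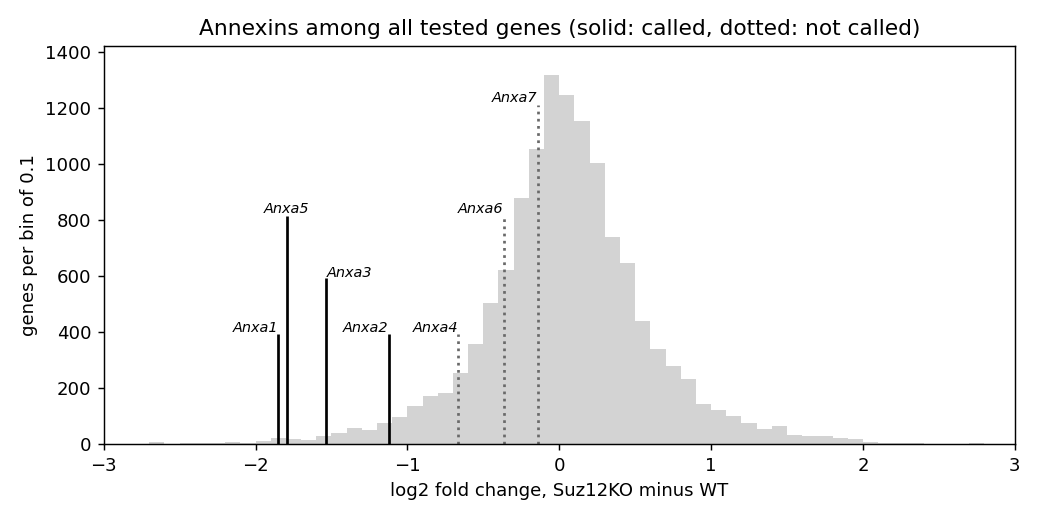
Histogram of log2 fold changes, Suz12KO minus WT, of the 12735 tested genes, drawn from -3 to 3, with a vertical line at each annexin (solid where called, dotted where not). The 4 called annexins lie in the lower tail between -1.85 and -1.12, and Anxa7 lies near the centre at -0.14.

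The 17 probe sets were not all informative. In 11 of them all 4 arrays exceeded the highest unused spike, and in 2 no array did. In a fit of 24461 single-symbol probe sets, 15 of the 17 were bright enough to test and 4 were called lower, beside 3.99% of all probe sets tested. The 4 were the brightest probe sets of Anxa1, Anxa2, Anxa3 and Anxa5 described above.

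The remaining probe sets of the lower genes were dim. The second Anxa1 probe set (1444016_at) read 48.5 and 21.6 in Suz12KO, against 51.8 and 126 in WT, all at background level. The second Anxa2 probe set (1437692_x_at) read 224 and 93.5 in Suz12KO, against 189 and 326 in WT, and its remaining one (1437691_at) did not exceed 14.2 in any array. They overlapped or lay at background, so they cannot show whether the bright probe sets are matched.

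Anxa7 was the member with the most even probe sets. Its second probe set (1416137_at) read 573 and 511 in Suz12KO, against 517 and 654 in WT, and its dimmest one (1438764_at) read 271 and 243 in Suz12KO, against 296 and 266 in WT. The genotypes overlapped in both, and the 3 log2 fold changes were -0.14, -0.10 and -0.12.

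Probe sets of Anxa6 differed in sign: the brightest (-0.36) and the second were lower in Suz12KO, and the rises came from the dimmer ones. The second (1429246_a_at) read 914 and 855 in Suz12KO, against 1297 and 1154 in WT, a log2 fold change of -0.46 (SE 0.15) without overlap. The third (1429247_at) read 352 and 293 in Suz12KO, against 226 and 176 in WT, a log2 fold change of 0.64 (SE 0.38), also without overlap. Its WT replicate 2 was at background level. The fourth (1442288_at), at 254 and 186 in Suz12KO and 222 and 147 in WT, overlapped, with replicate 2 of each genotype at background level. None of the 4 Anxa6 probe sets was called by limma, and their mean gave a log2 fold change of 0.02.

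The Anxa4 probe sets agreed in sign but not in size. The second (1424176_a_at) read 291 and 227 in Suz12KO, against 250 and 311 in WT, and overlapped. The third (1457658_x_at) read 43.9 and 191 in Suz12KO, against 201 and 207 in WT, where 1 Suz12KO array accounts for most of the log2 fold change of -0.98 (SE 0.71).

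**Figure D3:**
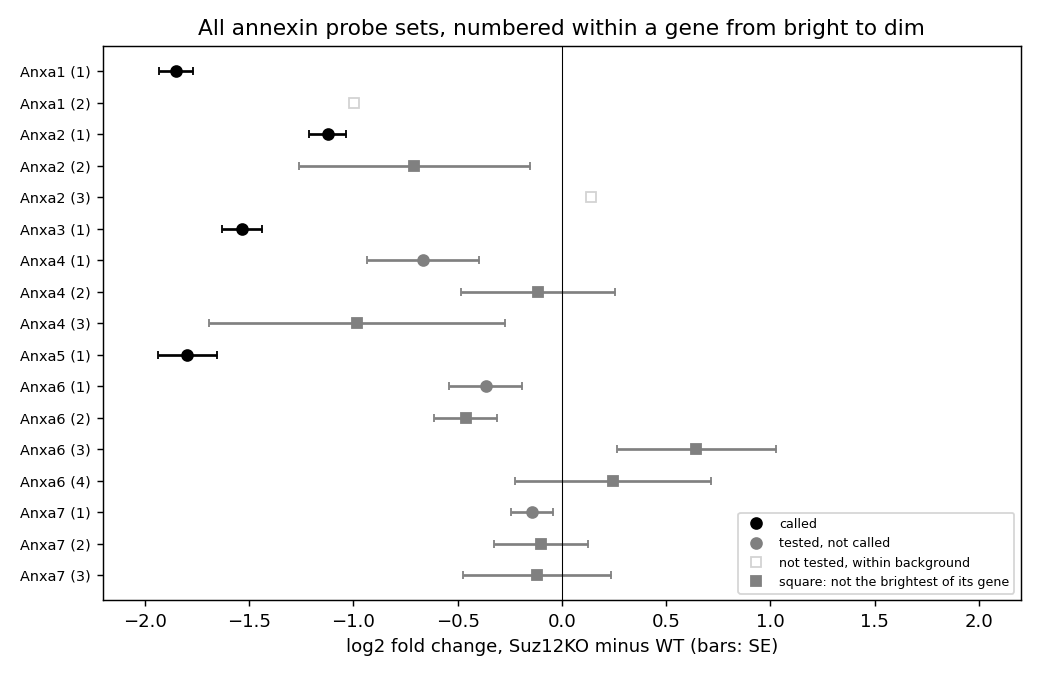
Log2 fold change, Suz12KO minus WT, of all 17 annexin probe sets, numbered within a gene from bright to dim, with the SE of the probe set fit as bars; black marks called probe sets, grey the tested ones that were not called, open squares those too dim to test. The 4 black points lie at -1.12 or lower, and the 4 Anxa6 points fall on both sides of 0.

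Annexins outside the named group were dim. Anxa8, an annexin of stratified epithelia, had 1 probe set (1417732_at) at 295 and 309 in Suz12KO, against 253 and 134 in WT, and a second (1425789_s_at) at 80.4 and 99.3 in Suz12KO, against 273 and 248 in WT. These pointed in opposite directions, and neither was called (limma adjusted p = 0.453 and 0.186). Anxa10 read 216 and 93.5 in Suz12KO, against 31.6 and 31.0 in WT, and its second probe set was dimmer, so neither could be tested. All arrays of Anxa9 and Anxa13 were at background level.

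The annexin head regions bind S100 proteins, and 2 of these partners fell with them. Of 6 listed S100 genes 5 were on the array under a single symbol and 3 were tested, with a median log2 fold change of -0.98. S100a10, the light chain of the Anxa2 complex, read 4832 and 4745 in Suz12KO, against 9372 and 8802 in WT (log2 fold change -0.92, SE 0.07, limma adjusted p = 4.64e-05). S100a6, which binds Anxa2 and Anxa11, read 2567 and 3333 in Suz12KO, against 7519 and 7812 in WT (-1.38, SE 0.11, adjusted p = 8.33e-05). Both were without overlap. S100a1 (-0.98, adjusted p = 0.474) was not called, S100a4 and S100b were at background level, and S100a11 was not analysed here.

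Of 17 genes of membrane repair and the ESCRT machinery 16 were tested, with a median log2 fold change of -0.33. Of these, 4 fell, 0 rose and 12 were not called. With probe sets averaged 3 fell, and with probe sets of an s, x or a suffix barred 2 of 10 tested fell. After centring each array on its median 5 fell, and with the replicate number as a block 7 fell and 1 rose. Cav1, the caveolar coat protein, read 372 and 367 in Suz12KO, against 1576 and 1710 in WT (-2.10, SE 0.17, limma adjusted p = 7.94e-05). Capn2, the catalytic subunit of m-calpain, fell by 1.34 on the log2 scale (SE 0.12). Ahnak, a giant scaffold that binds the Anxa2 and S100a10 complex, fell by 1.10 (SE 0.10). The fourth was the shared calpain subunit Capns1 (-0.36, limma adjusted p = 0.00823), named here after its value was seen. Its call was lost on leaving out WT replicate 1. The membrane repair proteins Dysf (-1.43, adjusted p = 0.300) and Myof (-0.79, adjusted p = 0.228), also named after the fact, were not called. Ahnak lost its call when probe sets were averaged (-0.68, adjusted p = 0.413).

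Few genes of the other partner groups were called. Of 10 plasminogen activation genes 3 were tested, with a median log2 fold change of -0.47. The urokinase receptor Plaur read 1265 and 1305 in Suz12KO, against 1825 and 1767 in WT (-0.48, SE 0.12, limma adjusted p = 0.0308), and the other 2 were not called. Plaur lost its call when any 1 array was left out (adjusted p 0.0518 to 0.148). In the Anxa1 receptor, glucocorticoid and phospholipase group 4 of 8 genes were tested and 0 were called by limma, with a median of -0.22. Its brightest, the glucocorticoid receptor gene Nr3c1 (-0.16, adjusted p = 0.794) and its target Tsc22d3 (-0.22, adjusted p = 0.733), had overlapping genotypes. The formyl peptide receptor gene Fpr2 read 46.1 and 186 in Suz12KO, against 35.9 and 9.12 in WT, all at background level.

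Genes that expose or recognise phosphatidylserine, the lipid bound by Anxa5, went both ways. Of 12 tested, Axl, a receptor that binds it through Gas6, read 438 and 403 in Suz12KO, against 1043 and 1068 in WT (-1.30, SE 0.19, limma adjusted p = 0.00242). Mfge8, a secreted bridging protein, rose by 0.32 (SE 0.09, adjusted p = 0.0475), and 10 were not called. The median was 0.14. Axl lost its call when probe sets were averaged (-0.70, adjusted p = 0.228). The Mfge8 call was lost on leaving out any single array and after centring (log2 fold change 0.15). It was also lost under averaging, without the trend and with no filter on dim genes.

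Some markers of other cell types fell with the annexins, and their part in the annexin result was not tested. Of 27 fibroblast markers 26 were on the array and 20 were tested; 10 fell, 1 rose and 9 were not called, with a median of -0.76. Their summed signal was 48586 to 48639 in Suz12KO, against 128046 to 128862 in WT. In both genotypes most of it came from the bright genes Acta2, Vim, Tagln, Sparc and Fn1. The largest falls were in Col1a1 (-2.58), Thbs1 (-2.34) and Acta2 (-2.25), and Col6a2 rose by 0.70. Acta2 lost its call when probe sets of an s, x or a suffix were barred (-0.54, limma adjusted p = 0.729). Its brightest probe set has the s suffix, which can mark cross-hybridisation. With probe sets averaged 6 fibroblast markers fell. The Col6a2 call lay at the threshold (adjusted p = 0.0498). It was lost on leaving out Suz12KO replicate 2 or either WT array (adjusted p 0.0633 to 0.220), after centring (0.119), with no filter (0.0738), with a pseudocount of 1 (0.0506), with robust eBayes (0.0522), without the trend (0.216) and under averaging (log2 fold change 0.05). The fibroblast markers Dcn, Lum, Postn, Pdgfrb, Fap and Twist1 were at background level in all 4 arrays, WT included.

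Some epithelial keratins were lower as well. Of 9 tested trophoblast markers (median 0.08) Krt19 (-2.15), Krt8 (-1.91) and Krt18 (-1.43) fell and Tfap2c rose (0.72, a call lost on leaving out Suz12KO replicate 1 or either WT array, adjusted p 0.0524 to 0.173, after centring, with no filter and without the trend). The summed signal of the trophoblast list was 14085 to 14228 in Suz12KO, against 35905 to 37486 in WT, most of it from these 3 keratins, with Elf5 and Ascl2 at background level. Of 11 tested endoderm markers (median -0.32) Lama1 rose (2.31) and Krt19 fell, with sums of 6589 to 6594 in Suz12KO and 8217 to 8596 in WT, and Foxa2, Afp and Ttr at background level. Without the 3 keratins (Krt19 alone in the endoderm list), a choice made after their values were seen, the sums ran the other way, at 3197 to 3584 in Suz12KO against 2365 to 2380 in WT for trophoblast markers and 5832 to 6096 in Suz12KO against 5446 to 5760 in WT for endoderm markers. These keratins were the only called falls of their lists, so leaving them out favours a rise, and Krt7, not called, stayed in. Lama1 alone read 1417 and 1134 in Suz12KO, against 238 and 247 in WT. That gap is wider than the gap between these endoderm sums. Of 7 tested neural markers (median -0.27) Sox11 (-2.27), Nes (-1.41) and Stmn2 (-1.12) fell, with sums of 7369 to 8297 in Suz12KO and 16924 to 17172 in WT and Zic1 at background level. Nes lost its call when probe sets were averaged (-0.77, limma adjusted p = 0.165). Of 7 tested mesoderm markers (median 0.12) 0 were called by limma. The brightest of them were Kdr (0.12, adjusted p = 0.834) and Eomes (0.54, adjusted p = 0.346), with list sums of 2198 to 2244 in Suz12KO and 1516 to 2029 in WT and Tbx6 and Gsc at background level.

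**Figure D4:**
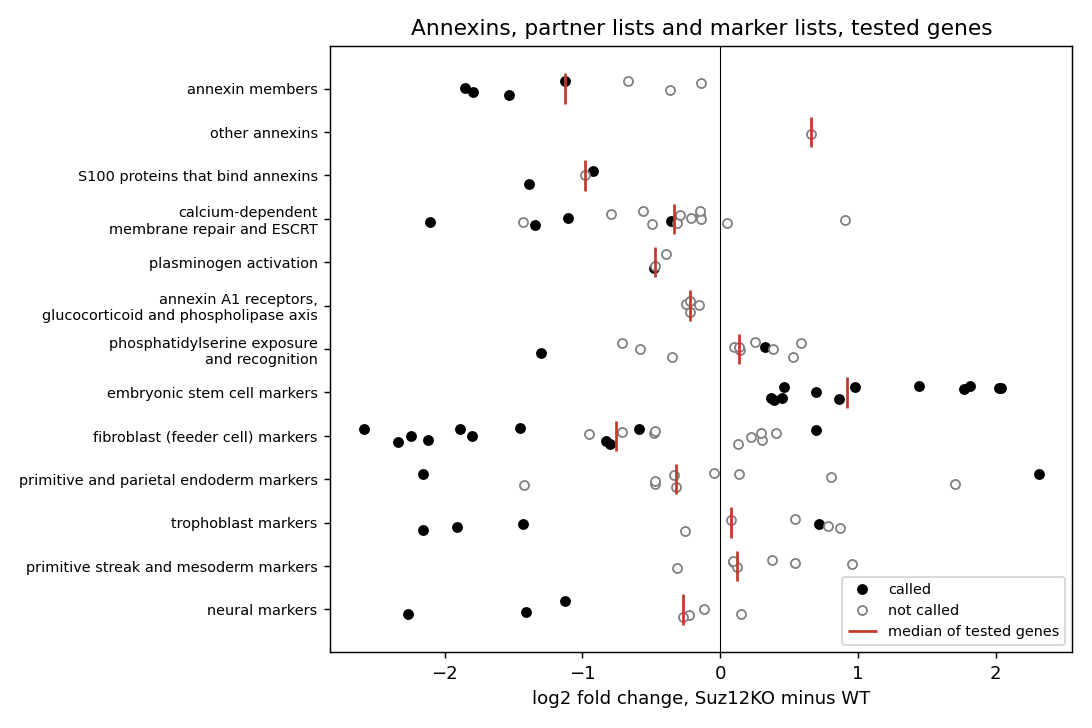
Log2 fold change, Suz12KO minus WT, of every tested gene of the annexin family, the partner lists and the marker lists; filled points are called genes, open points are not called, and red lines are list medians. The median is -1.12 for the annexins, -0.76 for fibroblast markers, -0.33 for membrane repair genes and 0.92 for stem cell markers.

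The genes whose pattern over the 4 arrays lay nearest to that of Anxa1 were Tagln, Cdh2, Pmp22, Prss23 and Tpm1. Likeness was the Euclidean distance between log2 values centred on each gene's mean, and it was 0.046 for Tagln, an actin-binding protein of smooth muscle, and 0.114 for Tpm1, a tropomyosin. Tagln read 5388 and 5755 in Suz12KO, against 20226 and 21055 in WT (-1.89, SE 0.06). Cdh2, which encodes N-cadherin, read 229 and 279 in Suz12KO, against 940 and 991 in WT (-1.87, SE 0.24). Pmp22 (-1.75) and Prss23 (-1.92) had the same shape. With 4 arrays this likeness rests chiefly on the shared difference between genotypes, and the dimmer Prss23 probe set without a suffix gave -0.01.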

How the data were processed

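Expression was measured on 4 arrays, 2 of Suz12KO and 2 of WT embryonic stem cells, with groups taken from the titles. RNA from 3 clones per genotype was pooled and labelled with biotin, per the labels' protocols. The deposited table holds linear intensity values of 45101 probe sets, and the labels name no software. The mean without the lowest and highest 2% was 500.003 in every array, so the deposited intensity had been scaled to a common trimmed mean. Array medians were 202 and 191 in Suz12KO and 175 and 171 in WT. Precision is limited by how few arrays there are.

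Gene symbols are those of the platform annotation, and 932 probe sets with several symbols and 9160 with none were left out. Values were taken as log2(signal + 16), which understates changes of dim genes. The probe set with the highest mean stood for a gene, and genes below the 30th percentile of that mean were dropped. The test was limma 3.58.1 in R 4.3.3 (lmFit, eBayes with trend, two-sided, p adjusted by Benjamini-Hochberg across every tested gene, threshold 0.05). A second fit used every single-symbol probe set. The code was checked on simulated data. Members, lists and alternatives were chosen with earlier results of these data known. Named genes were all members and annexins, Suz12, Pou5f1, Nanog, Sox2, up to 3 rises and 3 falls per list (or its 2 brightest), and the 5 nearest to the member with the largest change. Alternatives were the pseudocount (1, 64), quantile normalization, median centring, no filter or the 50th percentile, averaged probe sets, barring the suffixes s, x and a, eBayes without trend or robust, a replicate block, and leaving out each array. Figures used matplotlib 3.10.9 in Python 3.11.15.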

Additional observations from a re-analysis of the deposited data

How the results depend on the processing

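The calls of Anxa1, Anxa3 and Anxa5 held under every alternative that could test them except eBayes without a trend in the variance, and that of Anxa2 was lost under that setting and under averaging. Without the trend limma called 0 genes, 0 probe sets, 0 annexins and 0 listed genes, with 2332 genes at an unadjusted p under 0.05. Averaging probe sets gave 611 called genes in place of 1270, an annexin median log2 fold change of -0.59 in place of -1.12, and opposite signs for Anxa6 (0.016) and Anxa8 (-0.36). Without s, x and a suffixes 2 annexins were called, since Anxa2, Anxa4 and Anxa5 then had no probe set bright enough or none at all, the annexin median was -0.95 and Tsc22d3 was 0.040. Centring gave an annexin median of -1.29 and turned Kdr to -0.049. Leaving out 1 array gave 776 to 1277 called genes, the fewest without WT replicate 2, 1191 to 1430 called probe sets, 4 to 5 annexins with a median of -1.24 to -1.01, and 33 to 41 called listed genes in place of 40. Over these 4 settings Nr3c1 ranged from -0.42 to 0.11, Tsc22d3 from -0.45 to 0.0077 and Kdr from -0.020 to 0.26. A lone array is assumed to vary like the other genotype. The replicate number as a block gave 2098 genes, 2736 probe sets in place of 1667, and 4 annexins; the labels state no pairing, and deviations of same-numbered arrays correlated at 0.015 across genes. Of 102 annexin values under alternatives 95 kept their direction and side of the threshold. Signals near 195 cannot be told from background.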
